A study of Homo sapiens with 6 samples.

Results

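The genes described here are the 44 cytosolic chaperone genes that encode the HSP70, HSP110, HSP90 and small heat shock proteins, the heat shock factors, the co-chaperones of HSP70 and HSP90, the chaperonin and prefoldin. They were found by symbol in a table of 20442 genes, and all 44 had a row. The cells were T24, an established human bladder cancer line. Cells in culture dishes had attached for 24 h before 24 h with either si-NC, a control small interfering RNA (siRNA), or si-KNSTRN, an siRNA against KNSTRN, a gene of the mitotic spindle and kinetochore. Each group held 3 libraries, named here by group and number, which the submitters call biological replicates. Both groups received an siRNA, RNA was taken in bulk from whole cultures, and cells with no siRNA were not analysed here.

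Molecular chaperones bind unfolded or partly folded proteins and help them reach their native shape. HSP70 proteins hold and release hydrophobic stretches in a cycle of ATP binding and hydrolysis, which J-domain proteins and nucleotide exchange factors drive, and they can pass a client through the adaptor STIP1 to HSP90, which matures kinases, steroid receptors and other signalling proteins. The chaperonin (also called CCT or TRiC) is a barrel that encloses actin, tubulin and other clients, and prefoldin delivers newly made actin and tubulin chains to it. When unfolded protein builds up, the transcription factor HSF1 is released from chaperones, forms a trimer and binds heat shock elements, inverted repeats of the bases GAA, in front of chaperone genes.

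Short stretches of the members' promoters are shown because they hold the letters that HSF1 is known to bind. RefSeq windows of 250 bases before to 50 bases after a start site (GRCh38.p14) were found for 36 of the 44 members, 52 windows in all. The main word searched was GAANNTTCNNGAA (3 alternating repeats), read as TTCNNGAANNTTC on the other strand. It was present in windows of 4 members, HSPA8, HSP90AA1, HSP90AB1 and CHORDC1. By window, 4 of 52 held it (7.69%), against 172 of all 35116 windows (0.490%) and 51 of 15032 windows of genes tested (0.339%). Either of the shorter words GAANNTTC and TTCNNGAA, which lie inside the longer one and read the same on both strands, was in 16 of the 52 windows (30.8%) and in 10.4% of the windows of genes tested. Each stretch below is 30 bases, 5′ to 3′ on the gene's strand, with the match in capitals. In 6 of them the match is the longer word, and in CHORDC1 overlapping matches run together.
HSPA8 (chr11:123062170-123062199, minus strand): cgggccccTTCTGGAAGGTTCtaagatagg
HSPA8 (chr11:123062345-123062374, minus strand): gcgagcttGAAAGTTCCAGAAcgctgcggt
HSP90AA1 (chr14:102087111-102087140, minus strand): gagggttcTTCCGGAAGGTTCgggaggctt
HSP90AB1 (chr6:44247770-44247799, plus strand): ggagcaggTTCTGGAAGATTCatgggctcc
HSP90AB1 (chr6:44247823-44247852, plus strand): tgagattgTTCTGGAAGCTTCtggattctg
CHORDC1 (chr11:90223083-90223112, minus strand): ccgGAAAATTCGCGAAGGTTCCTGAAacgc
In the next 3 the match is the shorter word. HSPA1A and HSPA1B are neighbouring copies with nearly the same promoter, and HSPB1 is shown as a member with the word whose level was not called different. PFDN6, also not called, holds the word too. In all, 15 members had a shorter word in a window, and not all are printed. The windows of HSPH1, HSPA4, BAG1, BAG3, AHSA1, FKBP5, CDC37, CCT3, CCT5, CCT7, PFDN1, VBP1 and PFDN4, all called higher, held none of these words. No window was found for 8 members: HSPA14, HSF1, BAG4, ST13, STUB1, FKBP4, CCT6A and PFDN2.
HSPA1A (chr6:31815426-31815455, plus strand): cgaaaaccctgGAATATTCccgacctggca
HSPA1B (chr6:31827622-31827651, plus strand): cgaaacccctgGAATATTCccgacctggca
HSPB1 (chr7:76302480-76302509, plus strand): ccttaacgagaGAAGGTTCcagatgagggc
These are matches of letters, and binding of HSF1 was not measured.

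Levels are given in CPM, a gene's reads scaled to a common library total. Libraries held 16386799 to 20596074 counted reads, and the upper limit that a count of 0 allows for counting error alone, 3 reads, came to 0.146 to 0.183 CPM. KNSTRN had 38.3, 41.2 and 41.9 CPM in si-NC libraries 1 to 3 and 13.6, 13.6 and 12.2 CPM in si-KNSTRN libraries 1 to 3 (log2 fold change -1.62, SE 0.07, adjusted p = 1.71e-11 by edgeR). The labelled epithelial origin was checked against marker genes. KRT7, KRT8 and KRT18 made up nearly all of a summed epithelial level of 2834 to 3001 CPM in si-NC and 3077 to 3245 CPM in si-KNSTRN libraries, whereas KRT19 and EPCAM had 8 to 29 reads in each library and CDH1 had none. Of 6 markers of urothelial differentiation, UPK1B, UPK2 and UPK3A had 3 reads or fewer in each library, and GATA3 had 19 to 37. UPK1A had 12 to 21 reads in si-NC and 2 to 5 in si-KNSTRN libraries, and PPARG had 26.3 to 30.1 CPM in si-NC and 42.8 to 47.9 CPM in si-KNSTRN libraries, so that the first was called lower and the second higher. The leukocyte markers PTPRC, CD3E and LYZ had 3 reads or fewer in every library, and CD68 had 29.7 to 35.3 CPM in si-NC and 44.4 to 46.8 CPM in si-KNSTRN libraries. The 5 fibroblast markers summed to 14.3 to 16.1 CPM and 10.7 to 12.4 CPM, mostly COL1A1, with COL3A1, DCN and LUM at 3 reads or fewer. The 4 endothelial markers summed to 0.549 to 0.837 CPM and 1.02 to 1.67 CPM.

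The CPM values are scaled by the trimmed mean of M-values (TMM). Calls are at an adjusted p under 0.05, from edgeR's quasi-likelihood test with Benjamini-Hochberg adjustment across the 12650 genes that passed a filter on low counts. A fold change is given as log2 of si-KNSTRN over si-NC. Of the 44 members, 43 passed that filter, and HSPB8 did not. In si-KNSTRN cells 30 members were higher, 2 were lower and 11 were not called. Over all genes tested, 62.5% were called in either direction, 31.2% higher and 31.3% lower. The median log2 fold change was 0.27 over the members and -0.01 over all genes tested. Groups did not overlap, with si-KNSTRN higher, for 31 members, against 33.4% of all genes tested, and with si-KNSTRN lower for 3, against 33.9%. By size, 13 members were both called and higher by at least 0.5 on the log2 scale, against 10.9% of all genes tested. The members took up 1.21%, 1.23% and 1.29% of counted reads in the 3 si-NC libraries and 1.64%, 1.63% and 1.67% in si-KNSTRN libraries 1 to 3. In bulk RNA, fewer cells of a kind and less RNA per cell cannot be told apart.

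**Figure D1:**
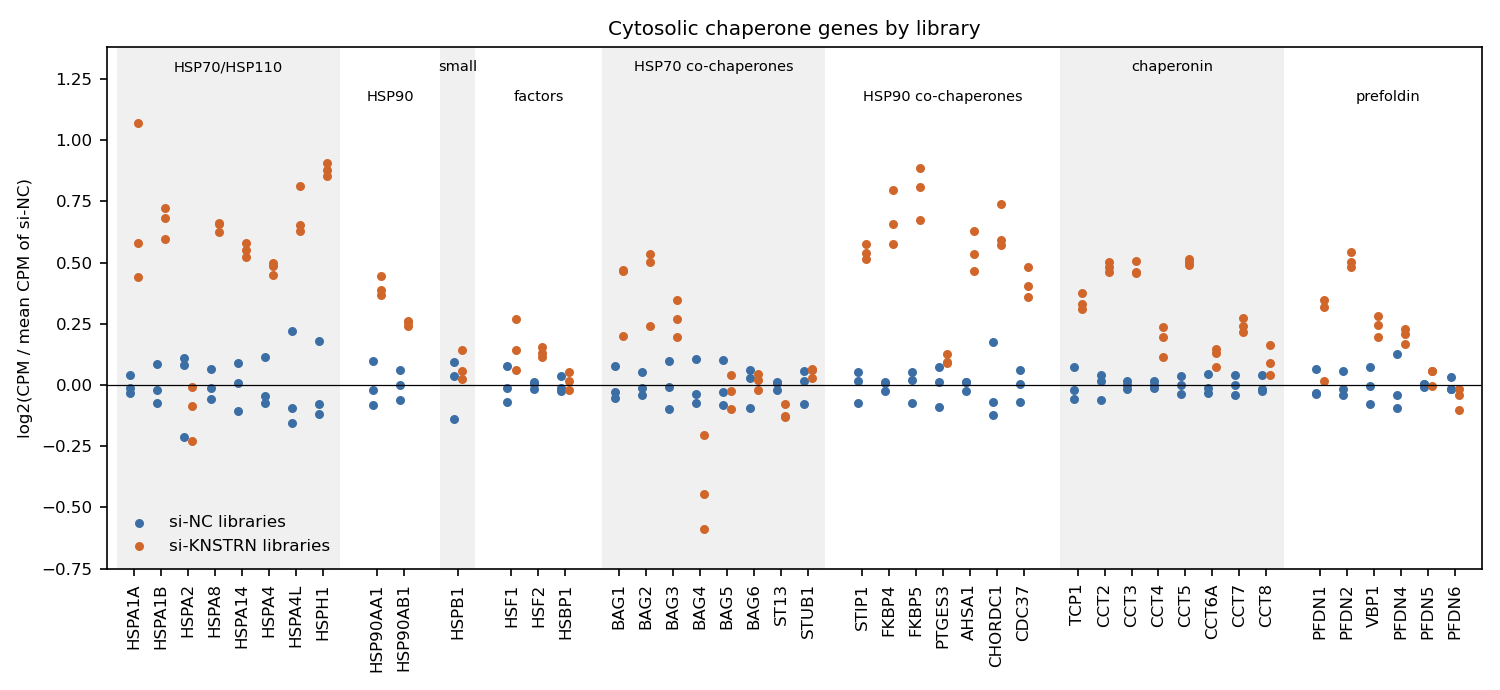
Each point is 1 library, and its height is the log2 ratio of its TMM-scaled CPM to the si-NC mean of that gene. The 43 tested members stand along the horizontal axis by class. The 3 si-KNSTRN libraries lie above the 3 si-NC libraries for 31 of the members, among them both HSP90 genes and all 8 chaperonin genes. They lie below for BAG4, ST13 and PFDN6. Over all genes tested, the si-KNSTRN libraries lie above for 33.4% and below for 33.9%.

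The HSP70 genes rose together, apart from HSPA2. Of 8 HSP70 and HSP110 genes, 7 were higher (87.5%, against 31.2% of all genes tested) and 1 was not called. Their median log2 fold change was 0.66. HSPA8 (chr11:123057489-123062462, GRCh38) encodes HSC70, the constitutive cytosolic HSP70. It had 1933, 1992 and 2104 CPM in si-NC libraries 1 to 3 and 3167, 3101 and 3176 CPM in si-KNSTRN libraries 1 to 3. All 3 si-KNSTRN libraries lay above all 3 si-NC libraries, and the level rose from 2009.6 ± 87.0 CPM in si-NC to 3148 ± 41.0 CPM in si-KNSTRN cells (SD, n = 3 each; log2 fold change 0.65, SE 0.05, adjusted p = 7.14e-09). HSPA8 was the most abundant HSP70 gene per length, at 816 ± 35.3 RPKM (CPM per kilobase of transcript) in si-NC cells (414 ± 17.9 RPKM by the length of all its exons merged), where HSPA1A and HSPA1B had 13.5 ± 0.359 and 17.5 ± 0.986 RPKM.

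HSPA1A and HSPA1B (chr6:31815543-31817942 and chr6:31827738-31830254) encode the stress-inducible HSP70. Of the 50-base windows of their transcripts, 72.6% and 73.5% occur in another gene, nearly always in each other, so that the division of reads between them is uncertain. HSPA1A had 33.3, 34.5 and 32.8 CPM in si-NC libraries 1 to 3 and 45.5, 50.1 and 70.4 CPM in si-KNSTRN libraries 1 to 3 (log2 fold change 0.72, SE 0.11, adjusted p = 3.86e-05). Library 3 of si-KNSTRN was the highest by a wide margin. HSPA1B had 43.6, 46.9 and 42.0 CPM in si-NC libraries 1 to 3 and 66.7, 73.0 and 70.9 CPM in si-KNSTRN libraries 1 to 3 (log2 fold change 0.67, SE 0.06, adjusted p = 2.74e-08), with no such library. The ratio of HSPA1A to HSPA1B was 0.763, 0.736 and 0.780 in si-NC libraries 1 to 3 and 0.681, 0.687 and 0.993 in si-KNSTRN libraries 1 to 3. Summed to 1 gene, they had 76.9, 81.4 and 74.8 CPM in si-NC libraries 1 to 3 and 112, 123 and 141 CPM in si-KNSTRN libraries 1 to 3, higher by 0.69 on the log2 scale (SE 0.07, adjusted p = 2.03e-07). Without si-KNSTRN library 3, HSPA1A had a log2 fold change of 0.51 (adjusted p = 2.54e-07).

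HSPA14 encodes an HSP70 of the ribosome-associated complex that meets chains as they leave the ribosome. Its level rose from 31.1 ± 2.11 CPM in si-NC to 45.5 ± 0.932 CPM in si-KNSTRN cells (log2 fold change 0.55, SE 0.06, adjusted p = 1.24e-06). HSPA2, an HSP70 gene best known from the testis, was near the lower end of detection, with 1.63, 1.99 and 2.03 CPM against 1.87, 1.61 and 1.78 CPM in si-NC and si-KNSTRN libraries 1 to 3. These values overlapped (log2 fold change -0.09, SE 0.19, adjusted p = 0.71).

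HSPH1, HSPA4 and HSPA4L encode the HSP110 proteins, large relatives of HSP70 that act as its nucleotide exchange factors. HSPH1 (chr13:31134973-31162388) had the largest log2 fold change of the 43 members tested. It had 169.7, 175 and 209 CPM in si-NC libraries 1 to 3 and 339, 333 and 346 CPM in si-KNSTRN libraries 1 to 3. The si-KNSTRN libraries were close to one another and all above the highest si-NC library, library 3 (log2 fold change 0.88, SE 0.06, adjusted p = 5.37e-09). HSPA4 rose from 188 ± 13.4 CPM in si-NC to 262 ± 4.74 CPM in si-KNSTRN cells (log2 fold change 0.48, SE 0.05, adjusted p = 5.53e-07). HSPA4L, the lowest of the 3 per length, rose from 17.2 ± 2.47 CPM in si-NC to 27.9 ± 1.97 CPM in si-KNSTRN cells (log2 fold change 0.70, SE 0.09, adjusted p = 4.23e-06). The ratio of HSPH1 to HSPA8 in CPM was 0.0878, 0.0877 and 0.0993 in si-NC libraries 1 to 3. It was 0.107, 0.107 and 0.109 in si-KNSTRN libraries 1 to 3, each above every si-NC library. As HSPH1 rose more than HSPA8 (log2 fold changes 0.88 and 0.65), this ratio is a description.

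**Figure D2:**
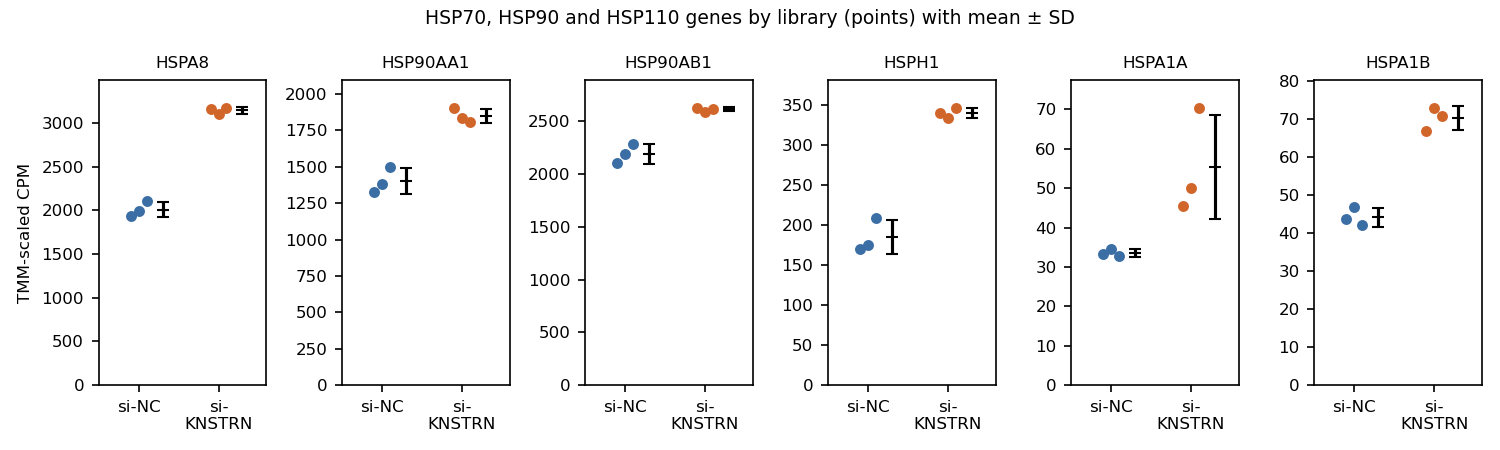
TMM-scaled CPM (vertical axes, from 0) of HSPA8, HSP90AA1, HSP90AB1, HSPH1, HSPA1A and HSPA1B in each library, with points for libraries 1 to 3 of each group from left to right and bars for the mean ± SD (n = 3). No si-KNSTRN point overlaps a si-NC point, and si-KNSTRN library 3 stands apart for HSPA1A at 70.4 CPM.

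Both HSP90 genes were called higher, against 31.2% of all genes tested. HSP90AA1 (chr14:102080742-102139749) encodes the inducible HSP90 alpha and had 1324, 1381 and 1501 CPM in si-NC libraries 1 to 3 and 1906, 1837 and 1808 CPM in si-KNSTRN libraries 1 to 3 (log2 fold change 0.40, SE 0.05, adjusted p = 5.01e-06). HSP90AB1 (chr6:44246194-44253883) encodes the constitutive HSP90 beta and had 2102, 2191 and 2288 CPM in si-NC libraries 1 to 3 and 2629, 2593 and 2621 CPM in si-KNSTRN libraries 1 to 3 (log2 fold change 0.25, SE 0.05, adjusted p = 0.000192). For both genes the lowest si-KNSTRN library was above the highest si-NC library. The ratio of HSP90AA1 to HSP90AB1 was 0.630, 0.631 and 0.656 in si-NC libraries 1 to 3. In si-KNSTRN libraries 1 to 3 it was 0.725, 0.709 and 0.690, and its groups did not overlap either. As HSP90AA1 rose more than HSP90AB1, this ratio is a description. Per length, HSP90AB1 was the more abundant in si-NC cells, at 820.4 ± 34.9 RPKM against 415 ± 26.8 RPKM, and with all exons merged at 736 ± 31.3 against 267 ± 17.2 RPKM. Both genes have processed pseudogenes, and 18.2% (HSP90AA1) and 18.8% (HSP90AB1) of their 50-base windows occur elsewhere. HSPA8, HSP90AA1 and HSP90AB1 together took up 0.528%, 0.546% and 0.586% of counted reads in the 3 si-NC libraries and 0.773%, 0.760% and 0.779% in si-KNSTRN libraries 1 to 3.

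The small heat shock protein genes gave no call. HSPB1, which encodes HSP27, a chaperone that holds unfolding proteins without ATP, had 446, 429 and 380.1 CPM in si-NC libraries 1 to 3 and 426, 462 and 435 CPM in si-KNSTRN libraries 1 to 3. The groups overlapped (log2 fold change 0.08, SE 0.06, adjusted p = 0.261). HSPB8, a partner of BAG3 in selective autophagy, had counts of 2, 0 and 0 in the si-NC and of 2, 2 and 3 in the si-KNSTRN libraries. These counts do not exceed what a count of 0 allows, and a difference was not detectable at this depth.

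Of the genes for the heat shock factors and the protein that binds them, 1 of 3 was called higher. This share (33.3%) was close to the 31.2% of all genes tested. HSF1, the main regulator of the heat shock response, had 145, 155 and 139.7 CPM in si-NC libraries 1 to 3 and 153, 162 and 176 CPM in si-KNSTRN libraries 1 to 3. The groups overlapped, and the call (log2 fold change 0.16, SE 0.06, adjusted p = 0.0181) was lost with upper-quartile scaling (adjusted p = 0.071). Leaving out 1 library also ended it: the adjusted p was 0.0595 without si-NC 1, 0.0798 without si-NC 3 and 0.0865 without si-KNSTRN 3, where the log2 fold change was 0.105. HSF2, a related factor, had 16.2, 15.9 and 16.3 CPM against 17.4, 17.6 and 17.9 CPM in si-NC and si-KNSTRN libraries 1 to 3. The groups did not overlap, but the difference was not called (log2 fold change 0.13, adjusted p = 0.123). HSBP1, which binds the trimer of HSF1, had 113, 112 and 116 CPM against 118, 112 and 115 CPM, which overlapped (log2 fold change 0.02, adjusted p = 0.781).

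Of 8 co-chaperone genes of HSP70, 3 were higher (37.5%, against 31.2% of all genes tested), 2 were lower (against 31.3%) and 3 gave no call. Their median log2 fold change was 0.03, and these counts were close to the shares over all genes tested. Most BAG proteins bind HSP70 through a BAG domain and promote release of nucleotide. BAG1 rose from 36.6 ± 1.78 CPM in si-NC to 47.8 ± 4.94 CPM in si-KNSTRN cells (log2 fold change 0.39, SE 0.07, adjusted p = 0.000221), with si-KNSTRN library 2 nearest to the si-NC libraries. BAG2, which inhibits the ubiquitin ligase STUB1, had 15.4, 14.4 and 14.7 CPM against 17.5, 21.1 and 21.5 CPM (log2 fold change 0.43, SE 0.09, adjusted p = 0.000404), although 42.7% of its exon length overlaps exons of RAB23 and reads of the pair cannot be separated without strand. BAG3, which links HSP70 to small heat shock proteins and autophagy, rose from 56.5 ± 3.81 CPM in si-NC to 68.2 ± 3.63 CPM in si-KNSTRN cells (log2 fold change 0.27, SE 0.06, adjusted p = 0.000504). The lower genes were BAG4 and ST13.

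BAG4, known as a silencer of death domains, had 7.78, 8.58 and 7.58 CPM in si-NC libraries 1 to 3 and 5.31, 6.93 and 5.87 CPM in si-KNSTRN libraries 1 to 3. Every si-KNSTRN library was below every si-NC library (log2 fold change -0.40, SE 0.12, adjusted p = 0.00774). ST13 encodes HIP, which stabilises the ADP-bound, client-holding state of HSP70. It had 358, 350.1 and 357 CPM in si-NC libraries 1 to 3 and 336, 324 and 325 CPM in si-KNSTRN libraries 1 to 3, a small fall (log2 fold change -0.11, SE 0.04, adjusted p = 0.0332). That call was lost with library size as the sole scaling (log2 fold change -0.075, adjusted p = 0.145) and with no low-count filter (adjusted p = 0.056). It was also lost when si-NC 1 or 2 was left out (adjusted p = 0.0916 and 0.0559), and when si-KNSTRN 2 or 3 was (adjusted p = 0.133 and 0.0566). The ratio of ST13 to HSPA8 in CPM was 0.185, 0.176 and 0.170 in si-NC libraries 1 to 3 and 0.106, 0.105 and 0.102 in si-KNSTRN libraries 1 to 3, with no overlap. As HSPA8 itself rose (log2 fold change 0.65), this ratio is a description and lends no weight to the call of ST13. Of the 50-base windows of ST13, 30.7% occur in another gene, most often its retrogene ST13P4.

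BAG5, BAG6 and STUB1 were not called. BAG5, with several BAG domains, had 24.8, 25.8 and 28.2 CPM against 25.8, 27.0 and 24.5 CPM in si-NC and si-KNSTRN libraries 1 to 3. BAG6, which escorts membrane proteins and degraded proteins in the cytosol, had 257, 264 and 237 CPM against 249, 256 and 260.5 CPM. STUB1 encodes CHIP, the ligase that marks HSP70 and HSP90 clients with ubiquitin, and had 135, 132 and 123 CPM against 132, 136 and 136 CPM. The groups overlapped for all 3 genes, with log2 fold changes of -0.03, 0.01 and 0.05 (adjusted p = 0.77, 0.81 and 0.343 by edgeR). Of the exon length of STUB1, 42.4% overlaps JMJD8.

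Most co-chaperone genes of HSP90 rose: 6 of 7 were higher (85.7%, against 31.2% of all genes tested). Their median log2 fold change was 0.55. Of the 7, 5 were called and higher by at least 0.5, against 10.9% of all genes tested. STIP1 encodes HOP, the adaptor between HSP70 and HSP90, and had 319, 340.3 and 349 CPM in si-NC libraries 1 to 3 and 481, 489 and 501 CPM in si-KNSTRN libraries 1 to 3 (log2 fold change 0.54, SE 0.05, adjusted p = 4.83e-08). Relative to the sum of HSP90AA1 and HSP90AB1 in CPM, STIP1 was 0.0931, 0.0953 and 0.0921 in si-NC libraries 1 to 3. In si-KNSTRN libraries 1 to 3 this ratio was 0.106, 0.11 and 0.113. As STIP1 rose more than either HSP90 gene, the ratio is a description. AHSA1, the gene of the activator of the HSP90 ATPase, had 129, 132 and 132 CPM in si-NC libraries 1 to 3 and 181, 189 and 202 CPM in si-KNSTRN libraries 1 to 3 (log2 fold change 0.55, SE 0.05, adjusted p = 6.08e-08). The si-NC libraries of AHSA1 were within a few CPM of one another and below every si-KNSTRN library.

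FKBP4 and FKBP5 encode immunophilins, peptidyl-prolyl isomerases that bind HSP90 in steroid receptor complexes. FKBP4 had 117, 115 and 118 CPM in si-NC libraries 1 to 3 and 174, 183 and 202 CPM in si-KNSTRN libraries 1 to 3 (log2 fold change 0.68, SE 0.05, adjusted p = 1.63e-08). FKBP5, a known target of the glucocorticoid receptor as well, had 20.4, 22.3 and 21.8 CPM in si-NC libraries 1 to 3 and 34.3, 37.7 and 39.8 CPM in si-KNSTRN libraries 1 to 3 (log2 fold change 0.79, SE 0.07, adjusted p = 7.89e-08) and the second largest log2 fold change of the 43 members tested. For both genes the si-KNSTRN libraries spread more than the si-NC libraries but stayed above them.

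CHORDC1, an HSP90 co-chaperone whose promoter window held a run of 3 overlapping matches of the longer word, had 39.7, 38.2 and 47.0 CPM in si-NC libraries 1 to 3 and 61.9, 62.7 and 69.6 CPM in si-KNSTRN libraries 1 to 3 (log2 fold change 0.64, SE 0.07, adjusted p = 9.43e-07). CDC37, which brings kinases to HSP90, rose from 239 ± 10.9 CPM in si-NC to 319 ± 13.8 CPM in si-KNSTRN cells (log2 fold change 0.42, SE 0.05, adjusted p = 1.58e-06). PTGES3 encodes p23, which stabilises the closed form of HSP90. It was the only HSP90 co-chaperone among the 7 that was not called, with 304, 284 and 317 CPM against 321, 329 and 322 CPM in si-NC and si-KNSTRN libraries 1 to 3. Its groups did not overlap, and the difference was small (log2 fold change 0.10, SE 0.05, adjusted p = 0.0703). It was called with library size as the sole scaling (adjusted p = 0.0211), with DESeq2 (0.0433) and without si-NC 3 (0.0176).

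**Figure D3:**
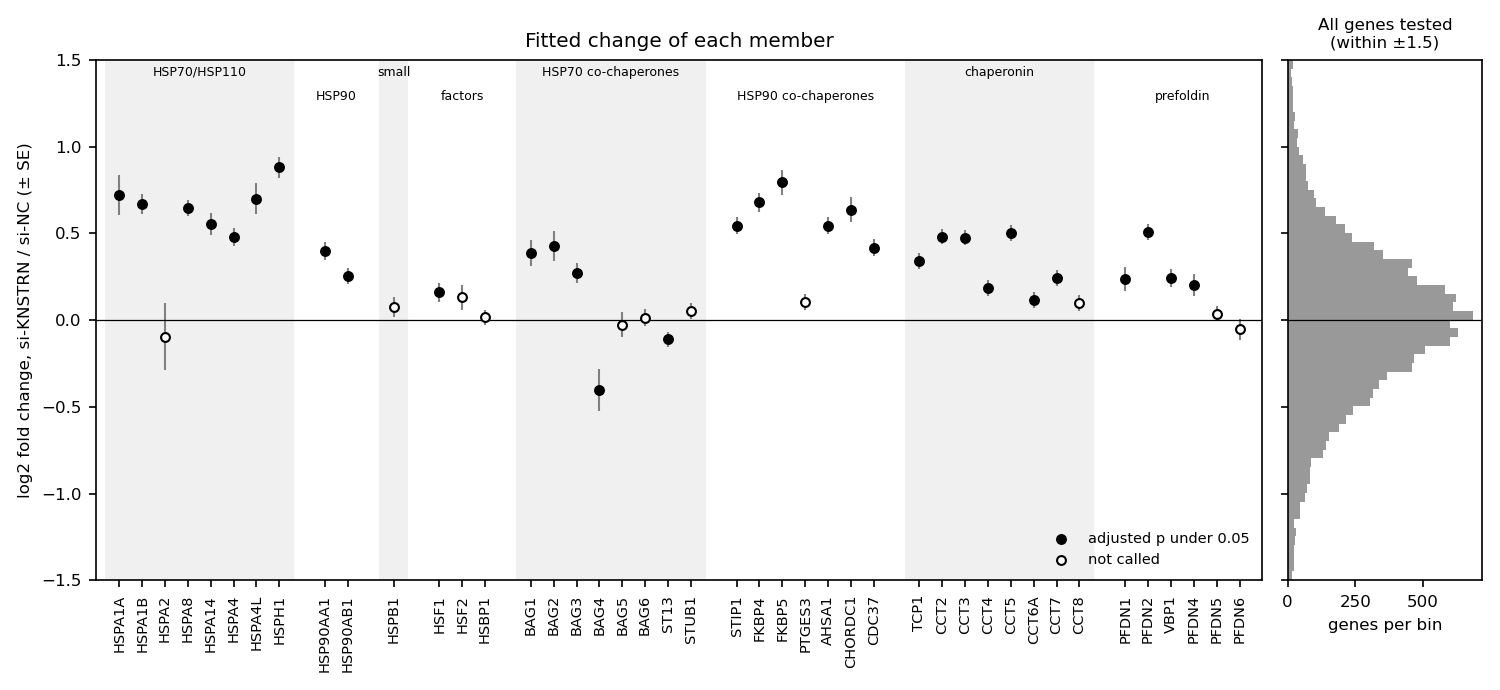
The left panel gives the fitted log2 fold change of si-KNSTRN over si-NC with its standard error for the 43 members tested, filled where the adjusted p was under 0.05, and the right panel a histogram of all genes tested on the same axis. HSPH1 is the highest at 0.88 and BAG4 the lowest at -0.40, while the histogram is centred near 0.

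All 8 chaperonin genes had higher levels in every si-KNSTRN library than in any si-NC library, as did 33.4% of all genes tested. Of the 8, 7 were called higher (87.5%, against 31.2%). The subunits share 1 complex, and the log2 fold changes of their genes ran from 0.10 to 0.50, with a median of 0.29. CCT5 had 487, 500.3 and 514 CPM in si-NC libraries 1 to 3 and 715, 702 and 709 CPM in si-KNSTRN libraries 1 to 3 (log2 fold change 0.50, SE 0.04, adjusted p = 6.08e-08). CCT3 had 456, 461 and 466 CPM in si-NC libraries 1 to 3 and 634, 634 and 655 CPM in si-KNSTRN libraries 1 to 3 (log2 fold change 0.48, SE 0.04, adjusted p = 9.52e-08). CCT2 rose from 297 ± 11.2 CPM in si-NC to 415 ± 5.85 CPM in si-KNSTRN cells (log2 fold change 0.48, SE 0.05, adjusted p = 1.17e-07). These were the largest changes of the complex.

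TCP1, the gene of subunit alpha, rose from 262 ± 12.0 CPM in si-NC to 332 ± 7.76 CPM in si-KNSTRN cells (log2 fold change 0.34, SE 0.05, adjusted p = 8.89e-06), and CCT7 (eta) rose from 529 ± 15.1 CPM in si-NC to 627 ± 13.0 CPM in si-KNSTRN cells (log2 fold change 0.24, SE 0.05, adjusted p = 0.000179). CCT4 (delta) had 421, 417 and 426 CPM against 496, 483 and 456 CPM in si-NC and si-KNSTRN libraries 1 to 3 (log2 fold change 0.18, SE 0.05, adjusted p = 0.0024). CCT6A (zeta) had 404, 409 and 426 CPM against 458, 453 and 434 CPM, and its call (log2 fold change 0.12, SE 0.05, adjusted p = 0.0327) was lost when si-NC 1 or 2 was left out (adjusted p = 0.125 and 0.0994), and when si-KNSTRN 1 or 2 was (adjusted p = 0.0971 and 0.11). With upper-quartile scaling its log2 fold change was 0.074 (adjusted p = 0.176). CCT8 (theta) was not called, with 348, 345 and 361 CPM against 394, 374 and 362 CPM (log2 fold change 0.10, SE 0.05, adjusted p = 0.0756). The lowest si-KNSTRN library of CCT8 was library 3, just above si-NC library 3, and CCT8 was called with library size as the sole scaling (adjusted p = 0.0174), with DESeq2 (0.041) and without si-NC 3 (0.0444) or si-KNSTRN 3 (0.0212).

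The ratio of CCT5 to CCT8 in CPM was 1.40, 1.45 and 1.42 in si-NC libraries 1 to 3 and 1.81, 1.88 and 1.96 in si-KNSTRN libraries 1 to 3. This pair was chosen after its values were seen, as the called gene with the largest change and the gene that was not called, and the ratio is a description. Per length, the si-NC levels of the 8 subunit genes ran from 105 ± 4.81 RPKM for TCP1 to 276 ± 7.86 RPKM for CCT7. In the order of si-NC levels CCT2 was 6 and CCT5 was 7 of 8, at 146 ± 5.50 and 136 ± 3.58 RPKM, and in si-KNSTRN cells they were 3 and 4, at 203 ± 2.86 and 193 ± 1.65 RPKM. CCT8, CCT4 and CCT6A stood lower in that order than in si-NC cells. With the length of all exons merged in place of the principal transcript, TCP1 was the lowest again, CCT2 was 7 in both groups, and CCT4 was the highest in si-NC cells at 149 ± 1.46 RPKM. Of the 50-base windows of CCT5 and TCP1, 49.8% and 22.1% occur in another gene.

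Prefoldin genes rose in part, as 4 of 6 were higher (66.7%, against 31.2% of all genes tested) and the other 2 gave no call. The median log2 fold change of the 6 was 0.22. PFDN2, a beta-type subunit gene, had 79.0, 84.4 and 80.3 CPM in si-NC libraries 1 to 3 and 118, 115 and 114 CPM in si-KNSTRN libraries 1 to 3 (log2 fold change 0.51, SE 0.05, adjusted p = 8.32e-08), the largest log2 fold change of the complex. VBP1, which encodes the alpha-type subunit that also binds the VHL protein, rose from 91.0 ± 4.76 CPM in si-NC to 108 ± 3.20 CPM in si-KNSTRN cells (log2 fold change 0.24, SE 0.05, adjusted p = 0.000463). PFDN4 had 43.6, 42.0 and 49.0 CPM against 52.6, 51.8 and 50.4 CPM in si-NC and si-KNSTRN libraries 1 to 3 (log2 fold change 0.20, SE 0.06, adjusted p = 0.00904), and without si-NC library 2 its adjusted p was 0.0584.

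PFDN1 had 56.5, 56.7 and 60.7 CPM in si-NC libraries 1 to 3 and 72.3, 73.7 and 58.6 CPM in si-KNSTRN libraries 1 to 3. The first 2 si-KNSTRN libraries were above all si-NC libraries and the last lay among them (log2 fold change 0.24, SE 0.07, adjusted p = 0.00798). Without si-KNSTRN library 2 the adjusted p of PFDN1 was 0.0541. PFDN5, an alpha-type subunit gene, had 196, 196 and 194 CPM against 203, 204 and 195 CPM and overlapped (log2 fold change 0.04, adjusted p = 0.463). PFDN6 had 35.0, 36.2 and 35.1 CPM against 35.0, 33.0 and 34.4 CPM, with si-KNSTRN libraries slightly below the si-NC libraries, and was not called (log2 fold change -0.05, adjusted p = 0.462). Of its exon length, 32.2% overlaps other tested genes. Per length, PFDN5 and PFDN2 were the highest subunit genes in si-NC cells, at 231 ± 1.35 and 120.0 ± 4.18 RPKM, and PFDN4 the lowest at 30.7 ± 2.52 RPKM. With merged exons the order was PFDN2 (120.0 ± 4.18 RPKM) before PFDN5 (57.9 ± 0.339 RPKM), and PFDN6 was the lowest.

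**Figure D4:**
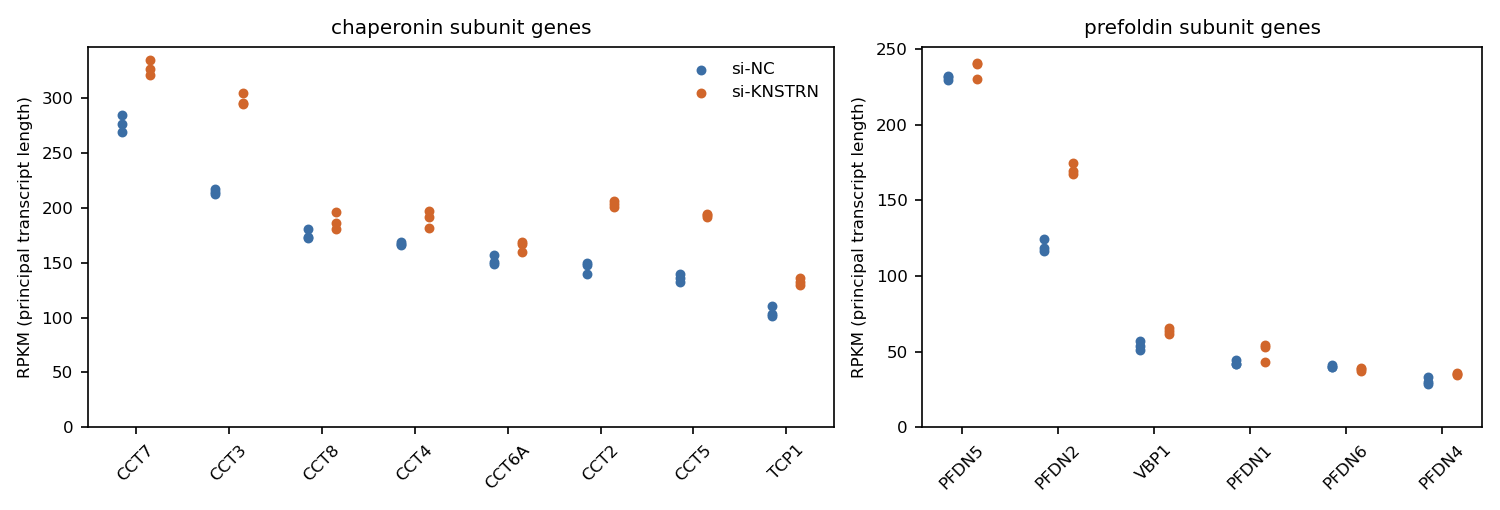
RPKM (vertical axes, from 0, by the length of the principal transcript) of the chaperonin subunit genes on the left and the prefoldin subunit genes on the right, 1 point per library, ordered by the si-NC mean. CCT2 and CCT5 pass CCT8, CCT4 and CCT6A in si-KNSTRN cells, and PFDN2 shows the widest gap between groups among the prefoldin genes.

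Other genes of the same pathways were taken from a list of 51 genes in 4 classes that holds no member, of which 50 had a row and 43 were tested. Of these, 25 were higher and 7 lower, with a median log2 fold change of 0.24 (23 higher and 11 lower with upper-quartile scaling). Over all genes tested, 31.2% were higher and 31.3% lower. Of 18 further HSP70 and HSP90 partner genes tested, 12 were higher and 2 lower. Of the partner genes called higher, those with the smallest p were NUDC, an HSP90 co-chaperone gene of the dynein pathway (from 206 ± 8.27 CPM in si-NC to 326 ± 19.7 CPM in si-KNSTRN cells; log2 fold change 0.67), and TOMM34, which binds HSP70 and HSP90 in the cytosol (log2 fold change 0.54). PIH1D1, a subunit gene of the R2TP co-chaperone complex of HSP90, fell from 77.5 ± 0.974 CPM in si-NC to 48.7 ± 3.14 CPM in si-KNSTRN cells (log2 fold change -0.67, adjusted p = 1.34e-08). HSPA13, a microsomal HSP70 gene, fell by 0.34 on the log2 scale.

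Among 10 other genes linked to heat shock factors, 6 were higher and 1 lower. CLPB, a mitochondrial disaggregase gene, the collagen chaperone gene SERPINH1 and the J-domain gene DNAJB1 had log2 fold changes of 0.77, 0.61 and 0.52. DNAJB1, the partner of HSP70 that feeds back on HSF1, had 84.1, 87.7 and 83.8 CPM against 121, 116 and 130.1 CPM in si-NC and si-KNSTRN libraries 1 to 3. HSF4, a heat shock factor gene best known from the lens, fell by 0.37 on the log2 scale. HSPA6, the strictly inducible HSP70 gene, is not among these 10 but was counted with the HSP70 and HSP90 partner genes above. It was chosen after its values were seen. Its reads were few, with counts of 11, 1 and 3 in the si-NC and of 18, 15 and 29 in the si-KNSTRN libraries (log2 fold change 1.98, SE 0.47, adjusted p = 0.00156). Of 12 partner genes of the chaperonin and prefoldin, 6 were higher and 3 lower, with a median log2 fold change of 0.01. UXT, a prefoldin-like gene, and TBCC, a tubulin cofactor gene, fell by 0.23 and 0.32 on the log2 scale. Of 9 genes listed as other small heat shock genes, 3 were tested: HSPBAP1 was higher, HSBP1L1 was lower and HSPB11 was not called. HSPBAP1 and HSBP1L1 do not encode small heat shock proteins. The 6 others, among them CRYAB, had too few reads to be tested.

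The 3′ untranslated regions (UTRs) of the members were read for the word TGAGTA, picked from earlier results of these data. It was present in 35.0% of 3830 genes called lower with a 3′ UTR, in 19.1% of 3810 called higher and in 26.6% of 4499 not called. As the word was picked from these data, these shares are a description and give no independent evidence. The length of the 3′ UTRs was not taken into account. Among the members tested the word was present in 13 of 43. Of those 13, 8 were higher, 1 was lower and 4 were not called, and of the 29 members with a 3′ UTR free of the word, 21 were higher, 1 was lower and 7 were not called. HSPH1, FKBP4, HSPA4L and CCT5 rose and hold the word, and BAG4 fell and holds it. Its part in these values was not tested.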

How the data were processed

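Total RNA of T24 cells was sequenced from 3 si-NC and 3 si-KNSTRN libraries, grouped and numbered by their titles. The authors deposited 1 table of raw counts, with no normalization. The submitters' processing notes name HISAT2 2.0.1 and featureCounts with GRCh38, and FastQC 0.11.5 and fastp 0.20.0 for the reads. Whether strand was used, what became of multi-mapped reads and which annotation was counted is not given in the sources used here, so counts of near-identical or overlapping genes are uncertain.

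From the counts, edgeR 4.0.16 (R 4.3.3) was run on all genes with filterByExpr (minimum count 10), TMM factors and its quasi-likelihood test (two-sided), adjusted by Benjamini-Hochberg over 12650 genes. The standard error is the log2 fold change divided by the square root of the F statistic. The test was first run on simulated data with a common dispersion and few changed genes. That setting is simpler than these data, so it does not vouch for the calls. Lengths, exon overlaps, 3′ UTRs and shared 50-base windows came from GENCODE 29 (GRCh38), with 1 principal transcript per gene, and gene coordinates and promoter windows from RefSeq (GRCh38.p14). Alternatives were other scalings, DESeq2 1.42.0, limma 3.58.1 (voom), other filters, a replicate block, stricter thresholds and each library left out. The members and lists were chosen with earlier results of these data known. The text names KNSTRN, all members, and of the other chaperone genes the 5 with the smallest p in each direction among those called. Outside that rule, HSPA6 and the genes of the other small heat shock class were named after their values were seen. Replicate pairs differed by a chi-square of 2.16 to 10.3 per degree of freedom, and none was merged. The largest values were those of si-KNSTRN library 3 against libraries 1 and 2 of its group, at 10.3 and 6.98. Between si-KNSTRN libraries 1 and 2 it was 2.60, and between si-NC libraries 2.16 to 4.35. Of the leukocyte markers, 1 is not reported here.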

Additional observations from a re-analysis of the deposited data

How the results depend on the processing

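Of the 32 members called, 27 kept their direction and call in each of 14 alternative fits. The exceptions, HSF1, ST13, CCT6A, PFDN1 and PFDN4, kept their direction and are described with their values above. The count of members called higher ran from 28 to 32 over the scalings, tools and filters. At a log2 fold change of at least 0.5 it was 13, with 0 lower, beside 1373 higher and 1704 lower over all genes, and 13 higher and 1 lower among the other chaperone genes. Members called lower were 1 with library size alone, with no low-count filter, at an adjusted p under 0.01, without members holding TGAGTA and without members that share at least 20% of their 50-base windows, and 1 to 2 with each library left out. The other chaperone genes called lower were 11 with upper-quartile factors. The members' median log2 fold change was 0.31 with library size alone, 0.23 with upper-quartile factors, 0.31 with DESeq2, 0.31 with no low-count filter and 0.27 to 0.33 with each library left out. Genes that were not called and changed sign stayed not called: HSBP1 (-0.028 with upper-quartile factors), BAG5 (0.011 with library size alone), BAG6 (-0.029 with upper-quartile factors) and PFDN5 (-0.0056 with upper-quartile factors), and with a library left out HSBP1 ran from -0.0026 to 0.034, BAG5 from -0.067 to 0.028 and BAG6 from -0.031 to 0.045. With the replicate number as a block, 30 members were higher and 2 lower, as without it. Same-numbered libraries deviated together with correlations of -0.06 to 0.05, and libraries of different number with -0.06 to 0.10. These values give no sign of a pairing by number, but they cannot tell how the cultures were handled. The 2 settings that leave members out, the sum of HSPA1A and HSPA1B and merged exons were chosen after the data were seen. Depth limits HSPB8 and HSPA2.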
